A study of Mus musculus with 9 samples.

Results

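Transcripts of 39 genes of the lysosome and of autophagy were followed in 5TGM1-Cas9 cells, of 53077 genes listed by symbol in the deposited tables. The genes were chosen by name, and all 39 were found in each of the 9 tables. They comprise the transcription factors *Tfeb*, *Tfe3* and *Mitf*, the lysosomal membrane proteins *Lamp1*, *Lamp2* and *Mcoln1*, 7 cathepsins, 6 glycosidases, the secreted precursors *Psap* and *Grn*, 3 subunits of the proton pump, the cargo receptor *Sqstm1*, 5 members of the Atg8 family, and 9 genes for the formation and lipidation steps of autophagy.

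5TGM1 is a mouse multiple myeloma line, that is, a tumour of plasma cells, and the cells of all 3 groups constitutively expressed Cas9. The control cells carried a gRNA against the *Rosa26* locus, and another population carried an *Slc2a1* gRNA. The remaining population, written *Slc2a1/3/5/6/8*, carried a gRNA for each of *Slc2a1*, *Slc2a3*, *Slc2a5*, *Slc2a6* and *Slc2a8*, and every population had 3 biological replicates. *Slc2a1* encodes GLUT1, and the other 4 genes encode further hexose transporters of the same family. In the five-gene line the 4 other transporters were targeted first, and sorted cells were expanded before the *Slc2a1* gRNA was added. Each culture is therefore a mixed population of edited alleles and not a clone, and the expansion of the five-gene line cannot be told apart from its gRNAs. The study reported frameshifts in only part of the sequenced alleles of such cultures. Each value below is thus a mean over cells edited to different extents.

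Lysosomes are acidic organelles in which hydrolases degrade proteins, glycans and lipids delivered by endocytosis or by autophagy. In macroautophagy the *Ulk1* complex and the *Becn1* lipid kinase complex start a membrane that is extended by lipidated Atg8 proteins, takes up cargo bound by receptors such as *Sqstm1*, and fuses with the lysosome. *Tfeb*, *Tfe3* and *Mitf* are related factors that bind short E-box motifs near lysosomal and autophagy genes, and their activity is set largely by phosphorylation and nuclear entry rather than by transcript level. Plasma cells are known to depend on autophagy to limit the load of secretory protein.

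Estimated counts per library lay between 21838805 and 30537105, and mitochondrial transcripts took 4.84 to 11.1% of them. *Slc2a1* itself was counted at 198, 95.2 and 94.0 CPM in control gRNA replicates 1 to 3, 123, 98.5 and 98.0 CPM with the *Slc2a1* gRNA and 93.3, 91.8 and 52.9 CPM with the *Slc2a1/3/5/6/8* gRNAs, where CPM is the estimated count scaled to the library total after TMM normalisation. Its transcript fell with the 5 gRNAs by 0.66 on the log2 scale (SE 0.18, adjusted p = 0.0290, edgeR). With the *Slc2a1* gRNA alone the log2 fold change was -0.21 (SE 0.18, adjusted p = 0.544). Control replicate 1 stood well above the other control libraries for this gene, and both estimates include it. Of the 4 other targeted genes, *Slc2a6* and *Slc2a8* fell with the 5 gRNAs, with log2 fold changes of -0.67 (SE 0.19, adjusted p = 0.0366) and -1.22 (SE 0.14, adjusted p = 0.000309). *Slc2a5* rose, at 2.65 (SE 0.49, adjusted p = 0.00478), from 6 to 10 estimated counts per control library to 29 to 51, and *Slc2a3* had 0.27 (SE 0.15, adjusted p = 0.259). A frameshift allele need not lower its transcript, so these values do not measure editing. Of 9 plasma cell markers, 7 had a mean of at least 1 TPM, with a summed level of 672 to 1100.3 TPM per library. *Tnfrsf17* had means of 0.912 TPM in control, 0.419 TPM with the *Slc2a1* gRNA and 0.719 TPM with the 5 gRNAs, and *Cd38* stayed at or near 0. Macrophages are rich in lysosomal transcripts, and 8 macrophage markers summed to 3.18 to 5.18 TPM in control, 5.54 to 6.71 TPM with the *Slc2a1* gRNA and 3.25 to 6.29 TPM with the 5 gRNAs. *Mrc1* made up most of that at 2.69 to 5.89 TPM, and *Csf1r*, *Lyz2*, *Cd14* and *Adgre1* were each under 1 TPM in every library. *Mrc1* was higher with the *Slc2a1* gRNA, at 0.73 (SE 0.12, adjusted p = 0.0125) on the log2 scale, and its control libraries, 2.69, 3.61 and 4.79 TPM, lay below the 4.99, 5.46 and 5.89 TPM of that group. With the 5 gRNAs its log2 fold change was 0.29 (SE 0.12, adjusted p = 0.130). Of the plasma cell markers *Jchain*, the joining chain of secreted immunoglobulin, was called in both comparisons with control, at -1.33 (SE 0.18, adjusted p = 0.00529) with the *Slc2a1* gRNA and 0.59 (SE 0.17, adjusted p = 0.0348) with the 5 gRNAs. It was at 58.5, 52.3 and 57.9 TPM in control, 20.8, 14.2 and 26.1 TPM with the *Slc2a1* gRNA and 75.6, 97.5 and 69.2 TPM with the 5 gRNAs. The part of these markers in the results below was not tested.

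In control gRNA cells the 39 genes summed to 3910 ± 630.2 TPM (SD, n = 3), or 0.391% of the total, TPM being a scale that corrects for gene length and library size. Their median was 34.4 TPM against 8.69 TPM for all genes tested, and 37 of the 39 reached a mean of 1 TPM, 33 reached 10 TPM and 12 reached 100 TPM. *Sqstm1*, which binds ubiquitinated cargo for autophagy, had the highest mean at 517 ± 142 TPM (SD, n = 3), with 489, 391 and 671 TPM in replicates 1 to 3. Next came the carboxypeptidase cathepsin *Ctsz* at 452 ± 56.8 TPM (SD, n = 3), the saposin precursor *Psap* at 388 ± 80.7 TPM (SD, n = 3) and the endopeptidase *Ctss* at 315 ± 46.1 TPM (SD, n = 3). *Gaa*, *Grn*, *Ctsd*, *Lamp1* and *Gusb* followed between 199 and 229 TPM. Among these 9 genes the replicates of each overlapped those of the next, so neighbouring positions are not resolved, although every replicate of *Sqstm1* and *Ctsz* lay above every replicate of *Ctss* and of the 5 genes after it. The first gap without overlap lay between *Gusb* and *Gabarap* at 131 ± 13.7 TPM (SD, n = 3). Over all 38 neighbouring pairs in the order of control means, 8 did not overlap.

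Genes for autophagosome formation lay lower than most hydrolases. The initiating kinase *Ulk1* was at 13.7 ± 1.70 TPM (SD, n = 3), the lipid scramblase *Atg9a* at 13.7 ± 1.93 TPM (SD, n = 3), the E1-like enzyme *Atg7* at 5.89 ± 0.816 TPM (SD, n = 3), and *Atg14*, a subunit of the lipid kinase complex, was the lowest of the 37 at 2.81 ± 1.36 TPM (SD, n = 3). *Mitf* and the aminopeptidase cathepsin *Ctsh* were listed at 0 TPM in all 3 control replicates. *Mitf* had 3 estimated counts in 1 library with the 5 gRNAs and 0 in the other 8, and *Ctsh* had at most 4 in any library, so neither passed the filter on low counts and 37 of the 39 genes were tested. The summed level of the 39 genes per library ran from 3029 to 4638 TPM and was lowest in the 2 libraries with the largest mitochondrial share, at 10.5 and 11.1%, and highest in the library with the smallest, at 4.84%. The part of the mitochondrial share in the TPM values was not tested.

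**Figure D1:**
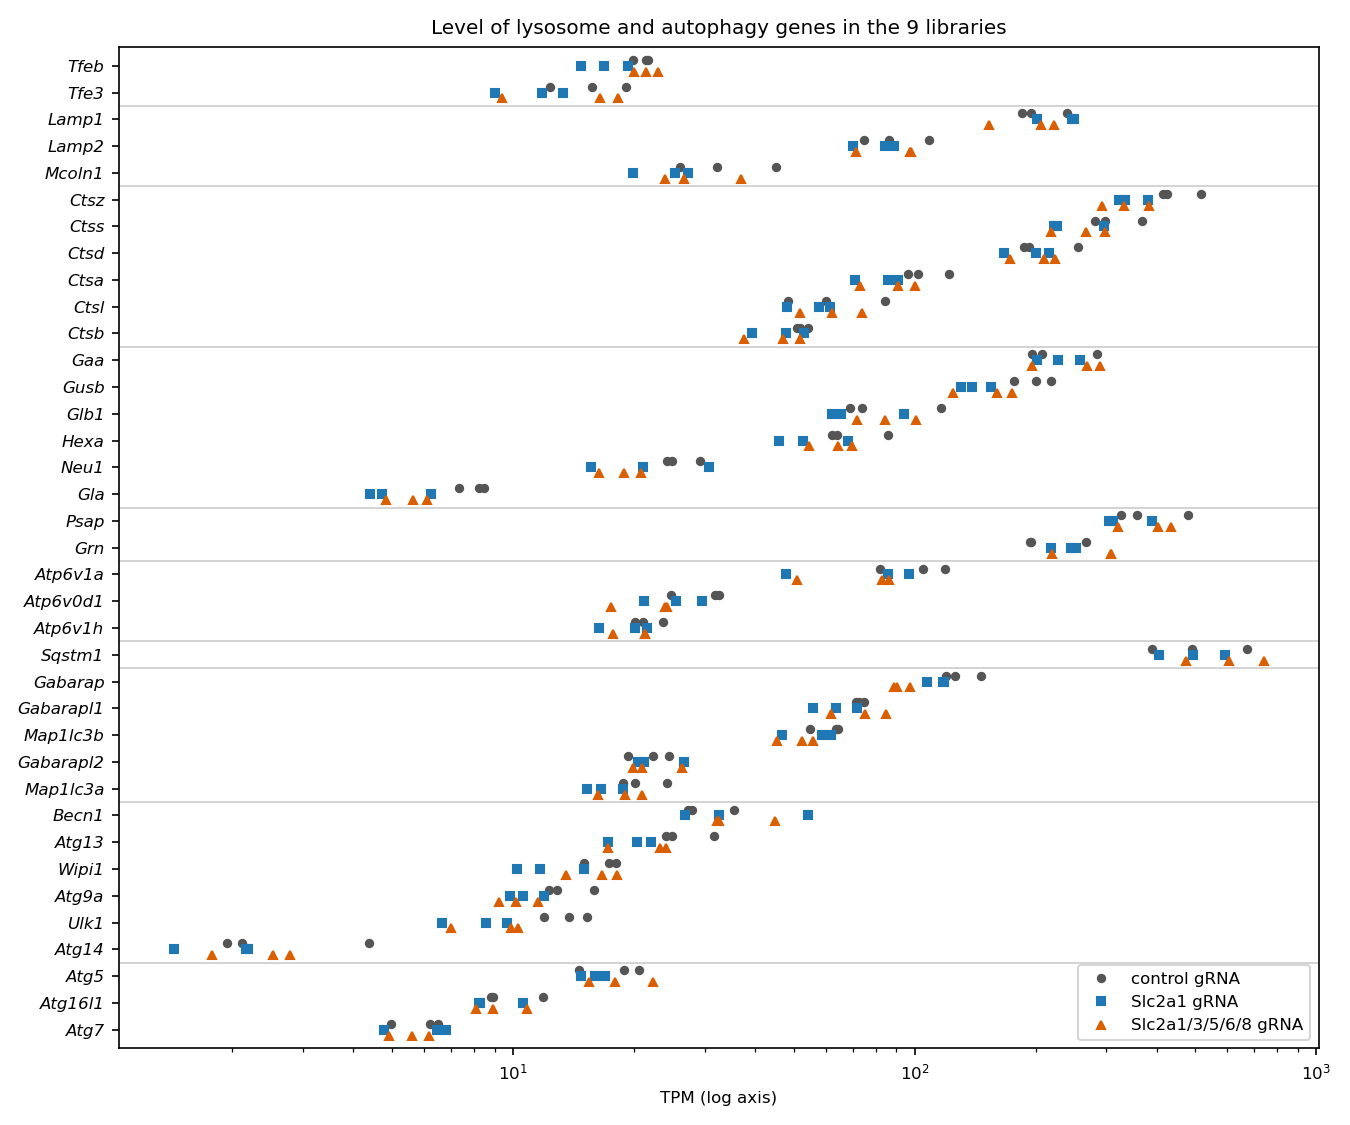
TPM (log axis) of 37 of the 39 genes in each of the 9 libraries, grouped by role with a line between roles and ordered by control mean within a role; circles are control gRNA, squares Slc2a1 gRNA and triangles Slc2a1/3/5/6/8 gRNA replicates. Mitf and Ctsh, at 0 in control, are not drawn; the symbols of the 3 groups overlap for most genes, and levels run from Atg14 near 2.81 TPM to Sqstm1 near 517 TPM in control.

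The transcription factors differed in level but not detectably between groups. *Tfeb* was at 19.9, 21.4 and 21.6 TPM in control replicates 1 to 3, 14.8, 16.8 and 19.4 TPM with the *Slc2a1* gRNA and 21.4, 22.9 and 20.0 TPM with the 5 gRNAs. On this scale the *Slc2a1* gRNA libraries lay just below the control libraries, whereas their normalised counts, 38.6, 45.5 and 45.8 CPM, overlapped the control values of 46.4, 53.1 and 44.7 CPM. The log2 fold change of *Tfeb* from the counts was -0.15 (SE 0.12, adjusted p = 0.532) with the *Slc2a1* gRNA and 0.07 (SE 0.12, adjusted p = 0.759) with the 5 gRNAs, the sign of the second turning to -0.090 without five-gene replicate 1. *Tfe3* was at 15.7, 12.3 and 19.1 TPM in control, 11.8, 9.01 and 13.3 TPM with the *Slc2a1* gRNA and 9.39, 16.4 and 18.3 TPM with the 5 gRNAs. Its log2 fold change was -0.12 (SE 0.11, adjusted p = 0.578) and 0.09 (SE 0.11, adjusted p = 0.611), and the sign of the latter turned to -0.12 in limma on log2(TPM + 1). *Mitf*, the remaining factor, was at or near 0 throughout.

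The E-box CACGTG and its extended form TCACGTG, in which these factors' sites in lysosomal genes are usually described, were searched on both strands in RefSeq promoter windows of 300 bases, 250 before and 50 after the annotated start (GRCm38.p6). CACGTG is its own reverse complement, and CACGTGA was counted as the other strand of the extended form, every extended match being also a CACGTG match. Of the 39 genes, 33 had a window, and 13 of them (39.4%) held CACGTG and 11 (33.3%) the extended form. Over all 27025 gene symbols with a window the shares were 8.09 and 4.29%, and over the 9871 tested genes with one they were 11.6 and 6.83%. The windows of *Tfeb*, *Tfe3* and *Mitf* held neither. The stretches below carry the motifs, in capitals, in *Lamp1*, which holds the most of them with 4, and in the 4 genes whose transcripts fell with the 5 gRNAs and whose window holds the extended form. They are read 5′ to 3′ on the gene's strand; for *Mcoln1*, *Atp6v1a* and *Atp6v0d1* only 30 bases around each motif are given.
Lamp1, chr8:13159076-13159160, plus strand: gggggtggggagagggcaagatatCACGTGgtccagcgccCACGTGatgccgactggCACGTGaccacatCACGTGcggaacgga
Gla, chrX:134601170-134601255, minus strand: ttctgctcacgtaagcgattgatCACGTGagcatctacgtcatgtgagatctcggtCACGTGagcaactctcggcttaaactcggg
Mcoln1, chr8:3500436-3500465, plus strand: ggtcgcgcttgtCACGTGttcagttcaggc
Mcoln1, chr8:3500462-3500491, plus strand: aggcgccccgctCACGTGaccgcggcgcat
Atp6v1a, chr16:44139373-44139402, minus strand: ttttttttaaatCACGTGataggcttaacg
Atp6v0d1, chr8:105566050-105566079, minus strand: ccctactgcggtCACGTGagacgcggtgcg

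In *Lamp1* the motifs begin 61, 45, 28 and 15 bases before the annotated start, in *Gla* 227 and 194 bases, in *Mcoln1* 71 and 45 bases, in *Atp6v1a* 131 bases and in *Atp6v0d1* 3 bases before it. These are RefSeq starts, and the GENCODE gene positions given further on begin elsewhere for some of the genes. The RefSeq start lies 446 bases inside the GENCODE gene of *Atp6v1a*, 120 inside that of *Gla* and 62 inside that of *Mcoln1*, so that the *Atp6v1a* motif and the second of *Mcoln1* begin at bases 316 and 18 of the GENCODE gene. Of the 10 genes called with the 5 gRNAs, described further on, 4 (40.0%) held CACGTG and the same 4 the extended form, and of the 22 tested but not called that have a window, 9 (40.9%) held CACGTG and 7 (31.8%) the extended form. Of 104 further lysosome and autophagy genes with a window, 23.1 and 21.2% held them. A match describes the letters in the window and is no measure of binding.

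With the *Slc2a1* gRNA alone, 1 of the 37 tested genes, *Ulk1*, fell relative to control cells and 0 rose. That is 2.7% of the 37, beside 4.64% of all 13834 genes tested (2.25% higher and 2.39% lower), by edgeR's quasi-likelihood test at a Benjamini-Hochberg adjusted p under 0.05. At an unadjusted p under 0.05 the count was 8 of 37, that is 21.6%, beside 22% of all genes tested. Estimated log2 fold changes were below 0 for 28 of the 37 genes, with a median of -0.07 against 0.00 for all genes tested. *Ulk1* was counted at 57.8, 54.2 and 62.9 CPM in control gRNA replicates 1 to 3, 39.01, 40.8 and 48.7 CPM with the *Slc2a1* gRNA and 42.1, 46.6 and 45.8 CPM with the *Slc2a1/3/5/6/8* gRNAs. Every control library was above every *Slc2a1* gRNA library, with a log2 fold change of -0.45 (SE 0.11, adjusted p = 0.0332), that is, a mean of 0.733 times control. In such bulk samples fewer cells with a transcript and less of it per cell cannot be told apart. The gene lies on chromosome 5 from 110784488 to 110810097 (GENCODE M21, GRCm38, as for the positions that follow). Leaving out a control replicate, or *Slc2a1* gRNA replicate 1 or 2, left 0 of the 37 genes called, in fits that called only 0.0773 to 0.507% of all genes. *Ulk1* was called in 4 of the 9 fits that left out 1 library. These were the fits without *Slc2a1* gRNA replicate 3 and without five-gene replicate 1, 2 or 3. The five-gene libraries are not part of this comparison.

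*Lamp1*, the most widely used marker of the lysosomal membrane, was the gene with the highest estimate in this comparison. It was counted at 449, 446 and 473 CPM in control gRNA replicates 1 to 3, 619, 542 and 560.1 CPM with the *Slc2a1* gRNA and 437, 436 and 453 CPM with the *Slc2a1/3/5/6/8* gRNAs. In these counts the 3 *Slc2a1* gRNA libraries lay above all 6 others, and the 2 other groups overlapped. In TPM the *Slc2a1* gRNA libraries, at 249, 202 and 246 TPM, overlapped control, at 195, 185 and 239 TPM. They also overlapped the libraries with the 5 gRNAs, at 153, 206 and 223 TPM. The log2 fold change against control was 0.33 (SE 0.11, adjusted p = 0.0963) with the *Slc2a1* gRNA and -0.04 (SE 0.11, adjusted p = 0.815) with the 5 gRNAs, and it was -0.37 (SE 0.11, adjusted p = 0.0898) between the deleted populations, so no comparison passed the threshold in the edgeR fit of all 9 libraries. For the first, edgeR on only the 2 groups compared and DESeq2 each gave an adjusted p of 0.0174, and for the last DESeq2 gave 0.00783. These were the only 2 of 16 alternative fits that called the first, and DESeq2 was the only 1 of 16 for the last. Of the 9 fits that left out 1 library, 0 called either. In limma on log2(TPM + 1) the estimates were 0.17 (adjusted p = 0.625) and -0.27 (adjusted p = 0.548). Exons of *Grtp1* on the other strand overlap 9.31% of the exonic bases of *Lamp1*, and *Grtp1* had 33.2 to 79.1 estimated counts per library.

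With the 5 gRNAs, 9 of the 37 tested genes fell relative to control and 1, *Grn*, rose. The 10 called genes are 27% of the 37, beside 15.9% of all genes tested (8.49% higher and 7.44% lower). Among genes with a mean of at least 10 TPM, a limit chosen after the values were seen, 9 of the 33 genes in the set were called, beside 19.7% of all 6368. The changes were small. Every called gene lay between 0.691 and 1.30 times its control mean, and 0 of the 37 genes changed at least 2-fold. Estimates were below 0 for 22 of the 37, with a median of -0.08 against 0.01 for all genes tested, and 13 (35.1%) had an unadjusted p under 0.05, beside 31.4% of all genes. The count depended on single libraries, as did that over all genes. Without control replicate 2, control replicate 3 or five-gene replicate 3, 0 of the 37 genes were called, beside 6.99, 5.16 and 6.13% of all genes, and without control replicate 1 the count was 1, beside 4.45%. Of the 9 fits that each left out 1 library, *Neu1* was called in 6, *Gabarap*, *Ulk1*, *Mcoln1* and *Gla* in 4 each, *Grn* and *Atp6v1a* in 3 each, and *Atg9a*, *Atp6v0d1* and *Ctsz* in 2 each. These include the fits without an *Slc2a1* gRNA library, a group outside this comparison. Apart from those fits, *Gabarap*, *Mcoln1* and *Gla* were called only without five-gene replicate 1, and *Ulk1* only without five-gene replicate 2.

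**Figure D2:**
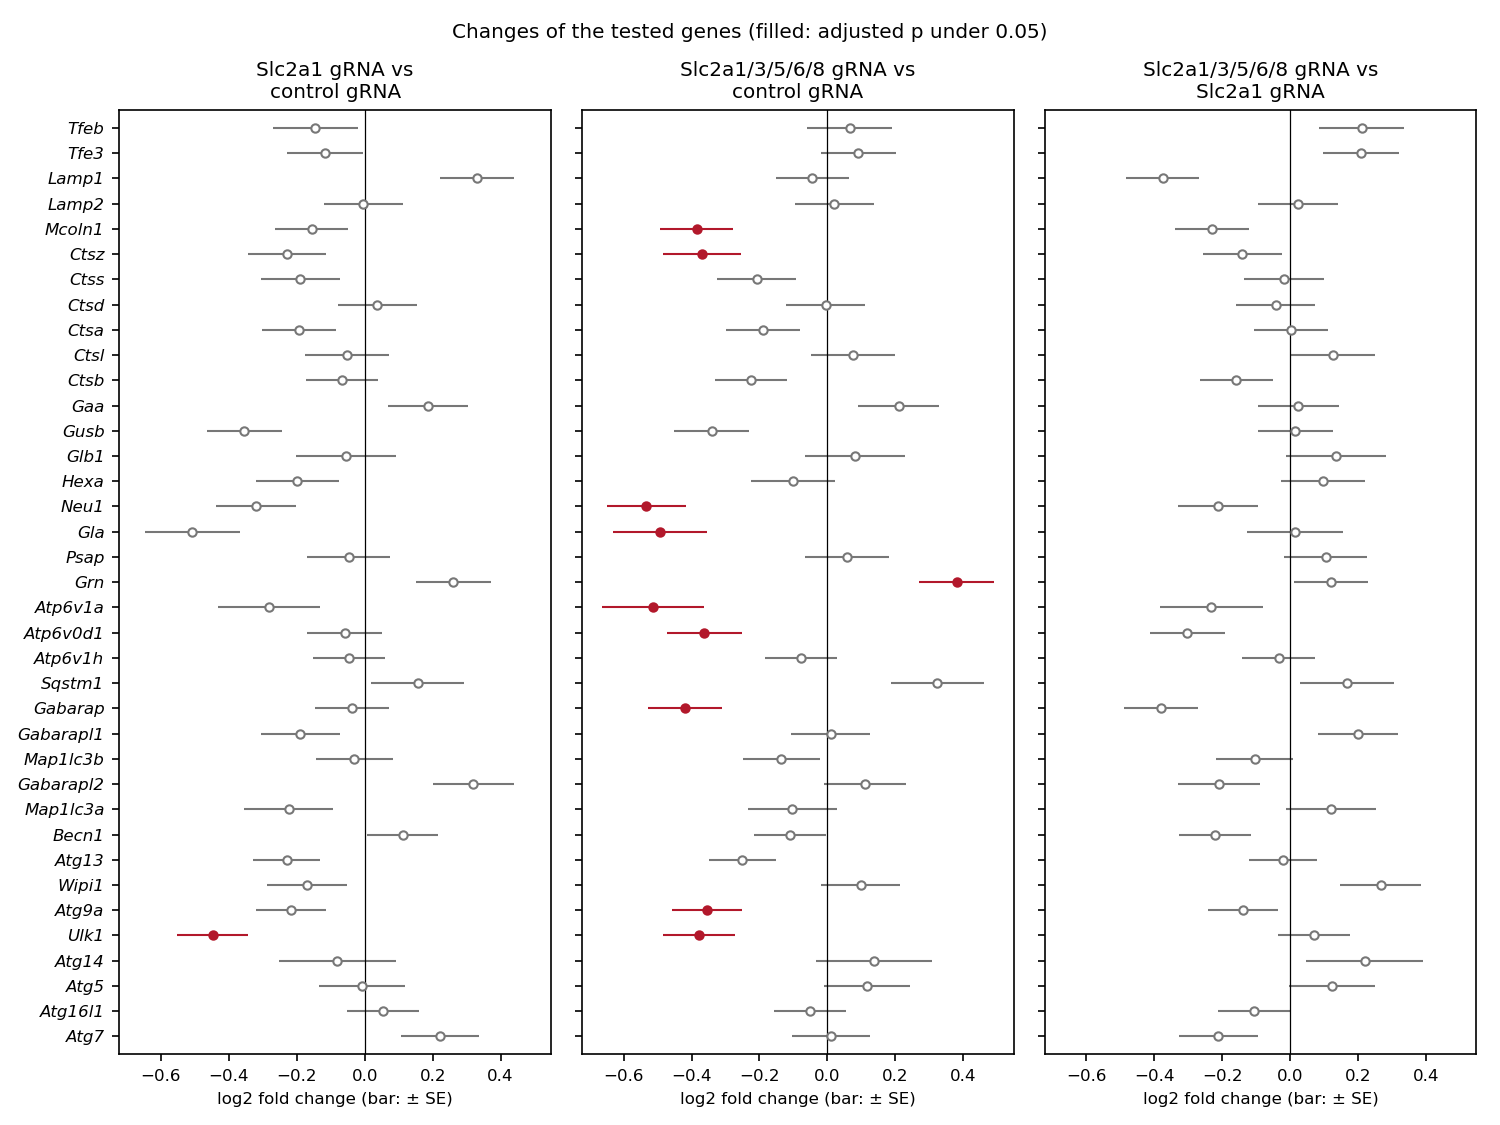
Log2 fold change with its standard error (bars) of the 37 tested genes in the 3 comparisons, from one edgeR fit of 9 libraries; filled red points passed an adjusted p of 0.05. Filled points are Ulk1 in the first panel and 10 genes in the second, 9 of them left of 0 and Grn right of it, and the third panel has none.

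Among the hydrolases, 2 of 6 glycosidases and 1 of 6 tested cathepsins fell with the 5 gRNAs, beside the 7.44% of all genes that were lower. *Neu1*, the lysosomal sialidase on chromosome 17 from 34931253 to 34935953, was counted at 66.0, 71.2 and 68.6 CPM in control gRNA replicates 1 to 3, 55.3, 50.5 and 59.2 CPM with the *Slc2a1* gRNA and 53.9, 46.5 and 42.3 CPM with the *Slc2a1/3/5/6/8* gRNAs. The lowest control library was above the highest library of either deleted population. The log2 fold change was -0.53 (SE 0.12, adjusted p = 0.0108) with the 5 gRNAs, the lowest adjusted p among the 37 genes. *Gla*, the alpha-galactosidase on chromosome X from 134588149 to 134601125, was counted at 23.8, 28.9 and 23.0 CPM in control gRNA replicates 1 to 3, 16.5, 16.6 and 20.0 CPM with the *Slc2a1* gRNA and 19.4, 16.8 and 17.5 CPM with the *Slc2a1/3/5/6/8* gRNAs. All control libraries lay above both deleted populations, which overlapped each other, and the log2 fold change with the 5 gRNAs was -0.49 (SE 0.14, adjusted p = 0.0321). With the *Slc2a1* gRNA *Gla* had -0.51 (SE 0.14, adjusted p = 0.0585) and was not called. There DESeq2, total count normalisation, no filter and the edgeR fit of only the 2 groups called it (adjusted p = 0.0285, 0.029, 0.0130 and 0.0150), and limma on either TPM scale did not. *Ctsz*, on chromosome 2 from 174427493 to 174439039, was counted at 564, 610.2 and 607 CPM in control gRNA replicates 1 to 3, 492, 514 and 515 CPM with the *Slc2a1* gRNA and 496, 479 and 406 CPM with the *Slc2a1/3/5/6/8* gRNAs, a log2 fold change of -0.37 (SE 0.12, adjusted p = 0.0475) that lay close to the threshold. *Gusb*, the beta-glucuronidase, did not pass the threshold (adjusted p = 0.0551), although its control libraries, 481, 572 and 517 CPM, were above all libraries with the *Slc2a1* gRNA, 403, 409.6 and 412 CPM, and with the 5 gRNAs, 424, 437 and 378 CPM. DESeq2 and total count normalisation called it with the 5 gRNAs (adjusted p = 0.0116 and 0.0399), and with the *Slc2a1* gRNA DESeq2, total count normalisation and the edgeR fit of only the 2 groups did (0.0142, 0.0421 and 0.0125). *Gusb* was called in neither comparison without the replicate block, without the filter or in limma, nor with the 5 gRNAs in the fit of only the 2 groups. Of the fits that left out 1 library, only that without five-gene replicate 1 called it, in both comparisons. The acid maltase *Gaa* had 830.3 ± 84.2 CPM in control and 958 ± 63.0 CPM with the 5 gRNAs (SD, n = 3), and its groups overlapped. *Ctsd*, the main aspartic protease, had 442 ± 34.8, 454 ± 27.2 and 440.4 ± 31.7 CPM in the 3 groups, means that differ by less than their spread. *Hexa*, *Glb1*, *Ctsa*, *Ctsb*, *Ctsl* and *Ctss* were not called, with group means between 0.856 and 1.06 times control in this comparison. For *Ctsa*, *Ctsb* and *Ctss* every 5-gRNA library lay below every control library in CPM (adjusted p = 0.258, 0.172 and 0.246, edgeR). The groups of *Hexa*, *Glb1* and *Ctsl* overlapped.

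*Grn*, which encodes progranulin, the precursor of lysosomal granulins, was the gene of the set that rose. It was counted at 454, 468 and 521 CPM in control gRNA replicates 1 to 3, 595, 569 and 563 CPM with the *Slc2a1* gRNA and 615, 645 and 616 CPM with the *Slc2a1/3/5/6/8* gRNAs. The 3 groups did not overlap, and the log2 fold change with the 5 gRNAs was 0.38 (SE 0.11, adjusted p = 0.0358), or 1.30 times control. *Grn* was called in 6 of 16 alternative fits, and was not called under total count normalisation (adjusted p = 0.0736), with only the 2 groups compared (0.0541), in limma on either TPM scale (0.267 and 0.363) or in 6 of the 9 fits that left out 1 library. *Grn* lies on chromosome 11 from 102430315 to 102437048, and *Fam171a2* on the other strand shares 1.96% of its exonic bases. *Psap*, the precursor of the saposins that assist sphingolipid hydrolases, was counted at 910.1, 1048 and 1154 CPM in control and 1110.0, 1119 and 993 CPM with the 5 gRNAs, with overlapping groups.

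Of the proton pump, which acidifies the lysosome, 2 of the 3 subunits in the set were lower with the 5 gRNAs. Of 14 further pump genes in the same fit, 1, *Tcirg1*, was lower, 0 were higher and 13 were not called, beside the 15.9% of all genes called. *Atp6v1a*, the catalytic subunit on chromosome 16 from 44085402 to 44139705, was counted at 429.9, 368 and 390.2 CPM in control gRNA replicates 1 to 3, 400.1, 249 and 335 CPM with the *Slc2a1* gRNA and 249.6, 301 and 274 CPM with the *Slc2a1/3/5/6/8* gRNAs. The 5-gRNA libraries lay below all control libraries, the *Slc2a1* gRNA libraries were spread across both, and the log2 fold change was -0.51 (SE 0.15, adjusted p = 0.0372). *Atp6v0d1*, which couples the pump's stalk to its membrane ring and lies on chromosome 8 from 105524465 to 105566047, was counted at 49.5, 41.2 and 43.1 CPM in control gRNA replicates 1 to 3, 50.6, 39.1 and 39.1 CPM with the *Slc2a1* gRNA and 34.6, 35.3 and 33.8 CPM with the *Slc2a1/3/5/6/8* gRNAs. Its 5-gRNA replicates were close to one another and below the other 6 libraries, with a log2 fold change of -0.36 (SE 0.11, adjusted p = 0.0430), and without the replicate block the adjusted p was 0.0635. *Atp6v1h*, a regulatory subunit, had 40.2 ± 1.46 CPM in control and 38.1 ± 3.69 CPM with the 5 gRNAs (SD, n = 3) and was not called. *Mcoln1*, the lysosomal calcium channel on chromosome 8 from 3500457 to 3515232, was counted at 49.1, 43.5 and 46.0 CPM in control gRNA replicates 1 to 3, 38.6, 44.9 and 40.9 CPM with the *Slc2a1* gRNA and 37.0, 35.4 and 33.8 CPM with the *Slc2a1/3/5/6/8* gRNAs. All 5-gRNA libraries were below the other 6, and the log2 fold change was -0.39 (SE 0.11, adjusted p = 0.0318). In TPM the groups overlapped, at 45.1, 26.0 and 32.2 TPM in control and 23.9, 26.7 and 36.9 TPM with the 5 gRNAs, and limma on log2(TPM + 1) gave -0.22 (adjusted p = 0.649). *Lamp2* had 199.6 ± 22.7 and 202 ± 4.34 CPM (SD, n = 3) in the same groups, which overlapped.

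Of the autophagy genes, *Gabarap*, *Ulk1* and *Atg9a* fell with the 5 gRNAs, where 7.44% of all genes were lower. *Gabarap*, an Atg8 protein on chromosome 11 from 69991143 to 69994951, was counted at 152, 151 and 148 CPM in control gRNA replicates 1 to 3, 149.8, 149 and 141 CPM with the *Slc2a1* gRNA and 131, 106 and 102 CPM with the *Slc2a1/3/5/6/8* gRNAs. The 5-gRNA libraries lay below all 6 others, which overlapped, and the log2 fold change was -0.42 (SE 0.11, adjusted p = 0.0220). *Ulk1*, whose values in all libraries are given above, had a log2 fold change of -0.38 (SE 0.11, adjusted p = 0.0300). *Atg9a*, on chromosome 1 from 75180860 to 75192196, was counted at 50.5, 47.4 and 50.2 CPM in control gRNA replicates 1 to 3, 44.4, 42.9 and 40.3 CPM with the *Slc2a1* gRNA and 40.1, 41.0 and 35.0 CPM with the *Slc2a1/3/5/6/8* gRNAs, with both deleted populations below every control library and a log2 fold change of -0.35 (SE 0.10, adjusted p = 0.0360). The annotated gene *Gm29253* on the same strand shares 31.8% of the exonic bases of *Atg9a* and had at most 21 estimated counts, and *Ankzf1* overlaps a further 0.8% from the other strand. The 4 other Atg8 genes, *Map1lc3a*, *Map1lc3b*, *Gabarapl1* and *Gabarapl2*, were not called, and their groups overlapped. *Sqstm1* was counted at 982, 823 and 1136 CPM in control gRNA replicates 1 to 3, 1322, 961 and 988 CPM with the *Slc2a1* gRNA and 1195, 1132 and 1335 CPM with the *Slc2a1/3/5/6/8* gRNAs, with overlapping groups and an adjusted p of 0.128. *Atg13*, the partner of *Ulk1*, had 91.8 ± 3.73 CPM in control and 77.1 ± 1.89 CPM with the 5 gRNAs (SD, n = 3), groups that did not overlap, with an adjusted p of 0.106. *Becn1*, *Atg14*, *Wipi1* and the conjugation genes *Atg5*, *Atg7* and *Atg16l1* were not called in any comparison.

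**Figure D3:**
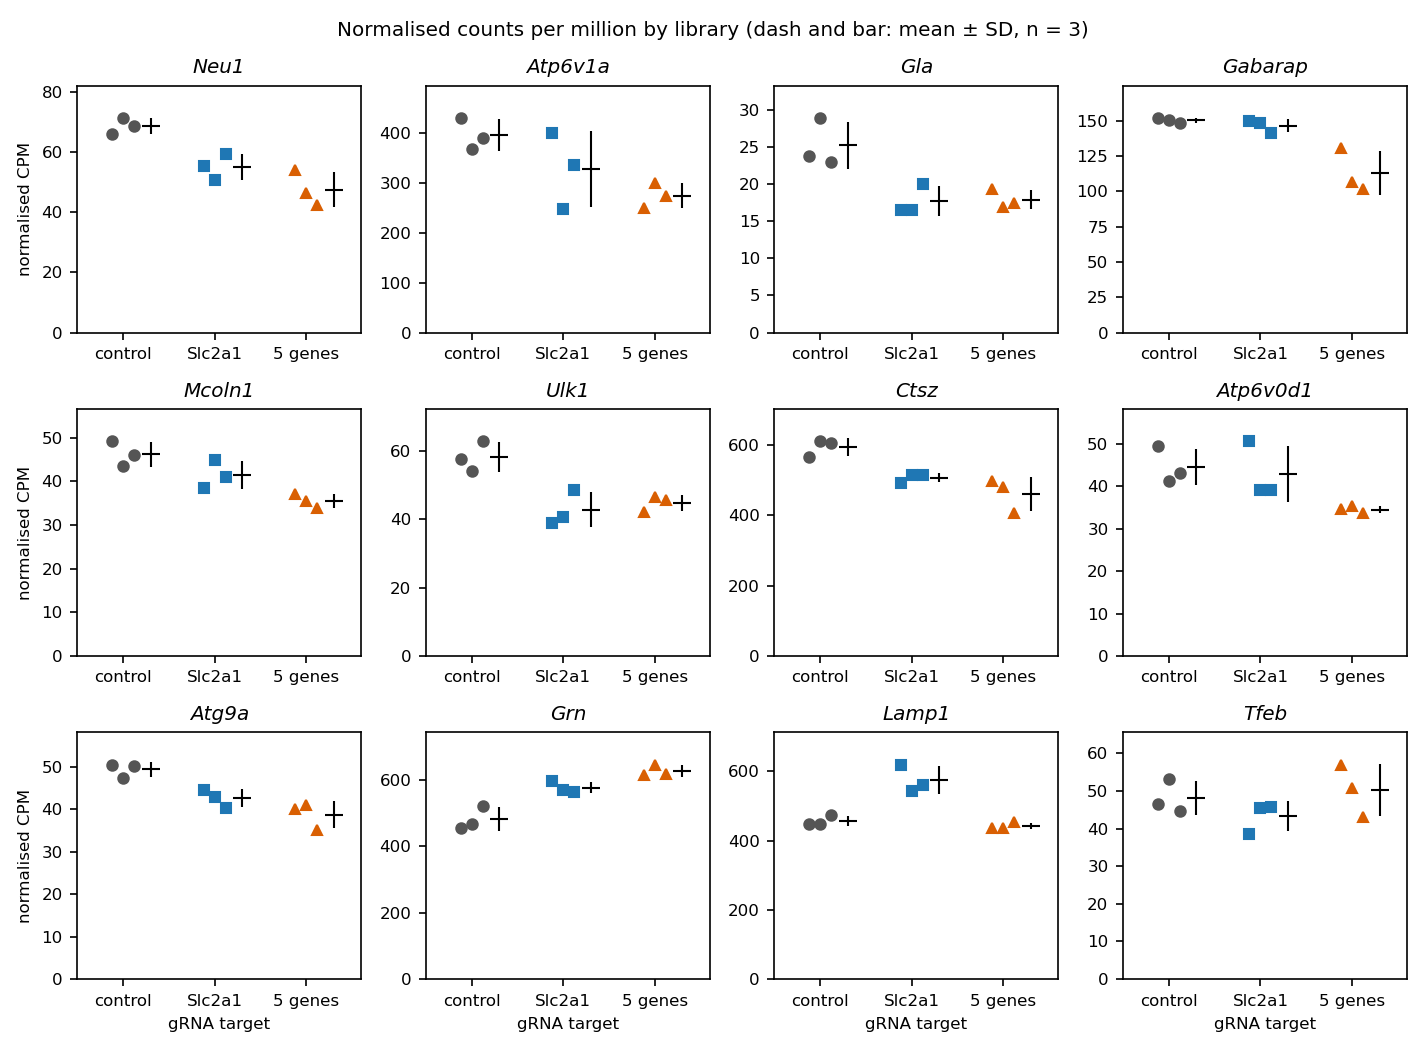
Normalised CPM (axis from 0) of the 10 genes called with the 5 gRNAs, ordered by log2 fold change, and of Lamp1 and Tfeb, in control gRNA (circles), Slc2a1 gRNA (squares) and Slc2a1/3/5/6/8 gRNA (triangles) replicates; dashes and bars are the mean and SD of 3. Triangles lie below circles for the first 9 genes and above them for Grn, and squares stand apart from both other groups for Lamp1.

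Between the *Slc2a1/3/5/6/8* gRNA and *Slc2a1* gRNA populations, 0 of the 37 genes were called, beside 2.31% of all genes tested (1.36% higher and 0.947% lower), by edgeR. At an unadjusted p under 0.05 the count was 4 (10.8%), beside 19.1% of all genes, and DESeq2 called 2, *Lamp1* and *Gabarap* (adjusted p = 0.0202), beside 5.48% of all genes. The lowest adjusted p was 0.0877, for *Gabarap*. Estimates ran from -0.38 to 0.27 on the log2 scale, with a median of 0.00. Both comparisons with control use the same 3 control libraries.

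Counts and TPM gave different values for some genes. The deposited effective length of a gene, by which TPM is scaled, varied between libraries. For *Mcoln1* the longest effective length was 1.72 times the shortest, with group means of 1213 bases in control, 1356 with the *Slc2a1* gRNA and 1044 with the 5 gRNAs. The ratio was 1.92 for *Becn1*, 1.44 for *Ulk1* and 1.43 for *Neu1*, but 1.04 for *Grn* and 1.01 for *Gla*. In limma on log2(TPM + 1), 0 of the 37 genes were called in any comparison, where 0, 336 and 17 of all genes were called in the order given above, and 8 of the 37 (21.6%) had an unadjusted p under 0.05 in each comparison with control, beside 17.5 and 20.7% of all genes. On log2(TPM + 0.1) the estimates for *Ulk1* were -0.72 with the *Slc2a1* gRNA and -0.60 with the 5 gRNAs.

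A further 132 genes of the lysosome and autophagy, of which 122 were tested, were counted in the same fit. With the *Slc2a1* gRNA 4 rose and 6 fell, 8.2% of the 122 beside the 4.64% of all genes, with a median of -0.04. The mitophagy receptors *Bnip3* and *Bnip3l* rose, with log2 fold changes of 1.45 (SE 0.27, adjusted p = 0.0165) and 0.55 (SE 0.11, adjusted p = 0.0207). *Bnip3* was counted at 219.7, 97.0 and 52.7 CPM in control gRNA replicates 1 to 3, 336, 272 and 286 CPM with the *Slc2a1* gRNA and 192, 172 and 156 CPM with the *Slc2a1/3/5/6/8* gRNAs, and control replicate 1 stood well above the other control libraries. The dipeptidyl peptidase *Dpp7* rose by 1.29 (SE 0.26, adjusted p = 0.0209), although by only 0.37 in limma on log2(TPM + 1). *Nagpa*, which uncovers the mannose 6-phosphate sorting tag, rose by 0.62 (SE 0.14, adjusted p = 0.0307), with 0.39 in limma. Those that fell were the hydrolases *Fuca1*, at -0.47 (SE 0.10, adjusted p = 0.0284), *Galns*, at -0.62 (SE 0.14, adjusted p = 0.0285), and *Aga*, at -0.55 (SE 0.14, adjusted p = 0.0427), the protease legumain (*Lgmn*), at -0.50 (SE 0.12, adjusted p = 0.0409), the cholesterol exporter *Npc1*, at -0.55 (SE 0.13, adjusted p = 0.0369), and *Scarb2*, the sorting receptor of glucocerebrosidase, at -0.68 (SE 0.17, adjusted p = 0.0430). Without control replicate 2 or 3 or *Slc2a1* gRNA replicate 2 none of the 122 was called, in fits that called 0.0773, 0.316 and 0.167% of all genes. Of the 9 fits that left out 1 library, *Bnip3* was called in 6, *Bnip3l* in 3 and each of the other 8 in 4. Without the replicate block 7 of the 10 were called, beside 3.86% of all genes, with adjusted p values of 0.0604 for *Bnip3*, 0.0627 for *Npc1* and 0.0600 for *Scarb2*.

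With the 5 gRNAs 5 of the 122 further genes rose and 12 fell, 13.9% beside the 15.9% of all genes, with a median of -0.05. *Tcirg1*, a membrane subunit of the proton pump, fell most clearly, with a log2 fold change of -0.79 (SE 0.11, adjusted p = 0.00125). It was counted at 114, 117 and 108 CPM in control gRNA replicates 1 to 3, 81.4, 88.6 and 84.0 CPM with the *Slc2a1* gRNA and 74.7, 65.2 and 56.2 CPM with the *Slc2a1/3/5/6/8* gRNAs, the 3 groups did not overlap, and it was called in all 9 fits that left out 1 library. *Lgmn* fell by 0.71 on the log2 scale (SE 0.12, adjusted p = 0.00352) and was also called in all 9. Its values were 319, 307 and 316 CPM in control gRNA replicates 1 to 3, 242, 189.9 and 237 CPM with the *Slc2a1* gRNA and 202, 205 and 169 CPM with the *Slc2a1/3/5/6/8* gRNAs. The other 4 of the 6 with the smallest adjusted p were *Fuca1* at -0.49 (SE 0.10, adjusted p = 0.00878), the cholesterol carrier *Npc2* at -0.48 (SE 0.11, adjusted p = 0.0116), *Atg16l2* at -0.56 (SE 0.14, adjusted p = 0.0201) and the cathepsin *Ctsk* at -2.19 (SE 0.56, adjusted p = 0.0209), the last from 1.08, 0.984 and 1.10 CPM in control and 0.306, 0.222 and 0.177 CPM with the 5 gRNAs. In limma on log2(TPM + 1) the estimates were -0.60 for *Ctsk*, -0.76 for *Fuca1* and -0.86 for *Atg16l2*. Of the 9 fits, *Fuca1* and *Npc2* were called in 5 each, *Atg16l2* in 4 and *Ctsk* in 3.

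Of the 5 further genes that rose with the 5 gRNAs, *Rraga*, a GTPase that recruits mTORC1 to the lysosome, had the smallest adjusted p, with a log2 fold change of 0.64 (SE 0.11, adjusted p = 0.00265). It was counted at 51.3, 55.2 and 74.4 CPM in control gRNA replicates 1 to 3, 64.0, 57.2 and 76.9 CPM with the *Slc2a1* gRNA and 83.6, 88.5 and 107 CPM with the *Slc2a1/3/5/6/8* gRNAs. Its 5-gRNA libraries lay above the other 6, and it was called in all 9 fits that left out 1 library. *Bnip3l* rose by 0.52 (SE 0.11, adjusted p = 0.00938), the heparan sulfatase *Sgsh* by 0.48 (SE 0.10, adjusted p = 0.00959), *Stx17*, the SNARE of autophagosome fusion, by 0.48 (SE 0.12, adjusted p = 0.0174), and the acid phosphatase *Acp2* by 0.52 (SE 0.15, adjusted p = 0.0339). Of the 9 fits, *Bnip3l* was called in 7, *Sgsh* and *Stx17* in 6 each and *Acp2* in 4. In limma on log2(TPM + 1) the estimate was 0.13 for *Bnip3l* and 0.32 for *Acp2*. Between the deleted populations 3 of the 122 were higher with the 5 gRNAs, namely *Rraga*, *Rubcn* and *Scarb2*, and 1, *Laptm5*, was lower, 3.28% beside the 2.31% of all genes; without the replicate block 1 was called, beside 0.932% of all genes.

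**Figure D4:**
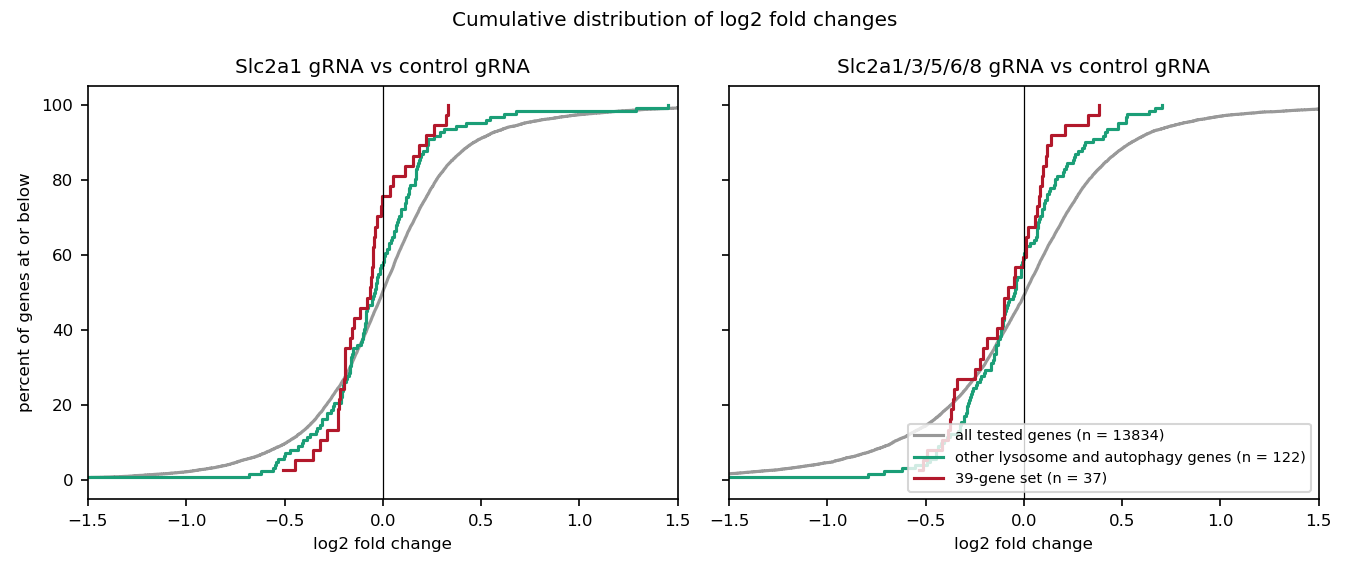
Cumulative percent of genes at or below a log2 fold change for the 37 tested genes of the set, 122 further lysosome and autophagy genes and 13834 tested genes, with the Slc2a1 gRNA (left) and the 5 gRNAs (right) against control. The set's curve is steep and ends within -0.53 and 0.38 on the right, and its median lies at -0.08 there against 0.01 for all genes.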

How the data were processed

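RNA from 3 groups of 3 biological replicates was analysed, grouped by the population and replicate number in the labels. The authors extracted RNA with the NucleoSpin RNA XS kit, had SMARTseq V4 libraries sequenced and ran Salmon (1.5.1, per the submitters' processing notes) on Galaxy; genome build, annotation and Salmon settings are not given in the sources used here. They deposited per gene an estimated count, which need not be whole, a TPM value, a length and an effective length. After rounding, these counts went into edgeR 4.0.16 under R 4.3.3 (quasi-likelihood test, TMM, default filter on low counts, 13834 genes, Benjamini-Hochberg adjusted p under 0.05). All 9 samples shared one fit with the replicate number as a block, since the study states a paired test. SE is the log2 fold change divided by the root of F. TPM values were used for levels between genes, as the authors deposited them, and effective lengths, deposited in bases, for a description. Salmon divides reads among similar genes, which leaves close paralogs uncertain, and depth intervals would cover counting error only.

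The 39 genes, the further list and the cell type markers were chosen with earlier results of these data known. Values in every sample are given for genes called in any comparison, the 3 transcription factors and *Lamp1*; of the further list, called genes are named, up to 6 per comparison and direction by adjusted p; *Gusb*, *Gaa*, *Ctsd*, *Psap*, *Sqstm1*, *Lamp2*, *Atp6v1h* and *Atg13* were added after their values were seen. Alternatives were DESeq2 1.42.0, no replicate block, total count normalisation, no filter, only the 2 groups compared, limma 3.58.1 on log2(TPM + 1) and log2(TPM + 0.1), a 2-fold minimum, and leaving out each sample. For every comparison the last include fits that left out a sample of the group not compared. Scripts were tested on simulated data. Of the gene names in the tables, 49351 of 53077 occur in GENCODE M21, the source of positions and exon overlap (GRCm38); promoter windows are from RefSeq. Python was used for motifs and figures. The authors' flow cytometry and amplicon data were not analysed here.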

Additional observations from a re-analysis of the deposited data

Results flagged for a closer look

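Of the 4 further lysosome and autophagy genes whose response differed between the deleted populations by a direct test (edgeR, replicate block), *Laptm5*, a lysosomal membrane protein of haematopoietic cells, had a log2 fold change of -1.14 (SE 0.19, adjusted p = 0.0123) with the 5 gRNAs relative to the *Slc2a1* gRNA. It was counted at 24.3, 11.1 and 15.2 CPM in control gRNA replicates 1 to 3, 31.2, 18.2 and 22.2 CPM with the *Slc2a1* gRNA and 9.91, 11.0 and 10.3 CPM with the *Slc2a1/3/5/6/8* gRNAs. *Scarb2* had a log2 fold change of 0.78 (SE 0.17, adjusted p = 0.0364) and was counted at 34.3, 43.6 and 56.0 CPM in control gRNA replicates 1 to 3, 23.4, 25.0 and 34.9 CPM with the *Slc2a1* gRNA and 51.4, 49.0 and 40.0 CPM with the *Slc2a1/3/5/6/8* gRNAs. *Rubcn*, an inhibitor of autophagosome maturation, had a log2 fold change of 0.54 (SE 0.11, adjusted p = 0.0249) from 42.2, 50.4 and 58.4 CPM in control gRNA replicates 1 to 3, 35.1, 37.1 and 43.0 CPM with the *Slc2a1* gRNA and 52.8, 57.3 and 56.6 CPM with the *Slc2a1/3/5/6/8* gRNAs. *Rraga* had a log2 fold change of 0.50 (SE 0.11, adjusted p = 0.0322). Without the replicate block only *Laptm5* was called (adjusted p = 0.0456), with 0.143 for *Rraga*, 0.0765 for *Rubcn* and 0.0838 for *Scarb2*. Of the 9 fits that left out 1 library, *Laptm5* was called in 8, *Rraga* in 3, and *Rubcn* and *Scarb2* in 2 each, with adjusted p values of up to 0.0630, 0.220, 0.184 and 0.235.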

How the results depend on the processing

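Where it is given, the share of all genes called in the same fit stands in parentheses after a count. With the *Slc2a1* gRNA, against 1 of the 37 genes (4.64%), DESeq2 called 4 (9.07%), total count normalisation 3 (5.33%), no filter 2 (5.47%), only the 2 groups compared 6 (16.7%), limma on either TPM scale 0 (0%), a 2-fold minimum 0 (0.766%) and leaving out each library 0 to 3 (0.0773 to 8.88%). With the 5 gRNAs, against 10 (15.9%), limma on log2(TPM + 1) and log2(TPM + 0.1) called 0 (2.43 and 0.636%), a 2-fold minimum 0 (2.88%) and leaving out each library 0 to 10 (4.45 to 17.7%); DESeq2, no filter, total count normalisation and the fit of 2 groups stayed within 1.5 times. Between the deleted populations, against 0 (2.31%), DESeq2 called 2 (5.48%) and the fits without a library 0 to 1 (0.291 to 2.64%). Of the further genes, against 10 with the *Slc2a1* gRNA, DESeq2 called 18 (9.07%), no filter 19 (5.47%), only 2 groups 26 (16.7%), limma on either scale 0 (0%), a 2-fold minimum 2 (0.766%) and leaving out a library 0 to 18 (0.0773 to 8.88%). Against 17 with the 5 gRNAs, limma on the 2 scales called 4 (2.43%) and 1 (0.636%), a 2-fold minimum 1 (2.88%) and leaving out a library 4 to 21 (4.45 to 17.7%). Against 4 between the deleted populations, DESeq2 called 13 (5.48%), no replicate block 1 (0.932%), no filter 13 (3.68%), only 2 groups 2 (0.883%), limma on the 2 scales 0 (0.123 and 0.253%), a 2-fold minimum 1 (0.651%) and leaving out a library 0 to 9 (0.291 to 2.64%). Without the replicate block 9 in place of 10 of the 37 genes were called with the 5 gRNAs. In that setting 1 was called with the *Slc2a1* gRNA (3.86%) and 0 between the deleted populations (0.932%). Same-numbered libraries deviated together weakly between control and *Slc2a1* gRNA (mean r = 0.158 over genes) but not in the other pairs of groups (0.0744 and -0.0612), so the numbers were not shown to pair all samples. Total count normalisation moved the median of all genes with the *Slc2a1* gRNA to -0.10. With the 5 gRNAs it gave 0 higher and 10 lower of the 37 genes, in place of 1 and 9. Such scaling moves all genes of a library alike, so this split alone is no result about these genes. *Tfe3* with the 5 gRNAs turned to -0.12 and -0.13 in limma on the 2 TPM scales, and *Tfeb* ranged from -0.090 to 0.17 on leaving out a library. The causes of these shifts were not tested. *Mitf* and *Ctsh*, at 4 or fewer estimated counts per library, did not pass the filter on low counts and were not tested in the main fit. The median SE of the 37 others was 0.116 on the log2 scale.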
